A study of Saccharomyces cerevisiae with 68 samples.

Results

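The budding yeast cell cycle is driven by the kinase Cdc28, whose cyclin partners change as the cycle goes on. Cln3 acts early in G1 and relieves the inhibitor Whi5, after which the factors SBF and MBF switch on CLN1, CLN2, PCL1, CLB5 and CLB6. Clb5 and Clb6 drive DNA replication, Clb1 and Clb2 drive mitosis, Sic1 inhibits the Clb kinases until S phase, and Cks1 is a small subunit that binds Cdc28. Described here are 10 genes of this system, chosen by symbol: CLN1, CLN2, CLN3, CLB1, CLB2, CLB5, CLB6, PCL1, SIC1 and CKS1. They are 10 of 5449 S. cerevisiae genes on the array, and each has 1 probe set.

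The study asked how far loss of subunits of SAGA, a coactivator complex of RNA polymerase II, changes RNA synthesis. RNA was measured in strains deleted for SPT20, SPT7, UBP8, GCN5, SPT3 or SPT8, in the double deletions ubp8 gcn5 and spt3 gcn5, and in wild type (WT), all derived from the parental strain FY406 and grown in YPD. Spt20 and Spt7 hold the complex together, Gcn5 acetylates histones, Ubp8 removes ubiquitin from histone H2B, and Spt3 and Spt8 contact the TATA-binding protein. Newly transcribed (nascent) RNA, labelled for 6 min with 5 mM 4-thiouracil and purified, and total RNA of the same kind of culture were hybridised to Affymetrix arrays with S. pombe RNA as a spike-in. All of the cultures, WT included, were labelled. Used here were 28 nascent and 30 total arrays of 68. These were 4 nascent and 2 total arrays of spt20, 4 total arrays of spt7, 4 of each fraction for ubp8, gcn5 and ubp8 gcn5, 2 of each fraction for spt3, spt8 and spt3 gcn5, and 6 of each fraction for WT. WT replicates 1 and 2 were left out because they hold averages of other WT arrays, for all S. cerevisiae genes in total RNA and for the S. pombe genes in both fractions, the spt7 nascent arrays because their genes are out of order, and spt20 total replicates 1 and 3 because they show SPT20 signal. In the arrays used, each deleted gene lay below its level in all WT arrays, in all 19 checks of a gene in a strain and fraction.

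Levels are given as relative levels, the log2 of the deposited intensity minus the array's median over the genes tested, so that 0 is the median gene and a change of 1 is 2-fold. Levels of different genes come from different probes and are not compared. A mutant was called different from WT at an adjusted p under 0.05 (limma, Benjamini-Hochberg over all genes tested), after the lowest 25% of genes by signal had been left out. Errors of levels are SD over arrays and errors of changes are SE. CLB2 fell under that filter in both fractions and CLB6 in total RNA, so their values there come from a fit to all 5449 genes. The labels state 2 biological replicates for the deletion strains but 4 arrays exist for 5 of them, so p-values measure the spread between arrays, which may be partly technical. In spt20 nascent RNA, replicates 1 with 3 and 2 with 4 deviated together from the strain mean (mean r 0.43). The other pairings did not (-0.72 and -0.69), and the p-values of that strain count its 4 arrays as separate. In RNA from whole cultures, fewer cells at a stage of the cycle and less RNA per cell at that stage cannot be told apart.

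The WT arrays were not alike. In each fraction a set of 4 arrays had S. pombe profiles unlike those of all others, namely both arrays of spt3 gcn5 and WT replicates 7 and 8, called batch 2. For CKS1, WT batch 2 lay lower than WT batch 1 by a log2 difference of -1.72 in nascent and -2.04 in total RNA. For CLB1 it lay higher, by 1.75 in nascent and 1.54 in total RNA, and for SIC1 it lay lower, by -0.89 and -1.47. The median absolute difference over all genes was 0.55 in nascent and 0.52 in total RNA. For PCL1 nascent RNA the batches differed by -0.01, and for CLB5 by -0.05 in nascent and 0.06 in total RNA. Most changes are given against all WT arrays, many of them also with batch as a term, and some only with that term. The batch term sets spt3 gcn5 against WT replicates 7 and 8, and every other mutant against WT replicates 3 to 6.

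In spt20, 4 of 9 members tested fell in nascent RNA and 3 of 8 in total RNA, against 45.6% and 44.3% of all genes called in either direction. In spt7 total RNA 4 of 8 fell, against 47.2% of all genes. In ubp8, 2 of 9 fell in nascent and 3 of 8 in total RNA (13.4% and 26.5% of all genes called). In gcn5, 1 rose and 1 fell in nascent RNA and 2 rose and 2 fell in total RNA (20.1% and 37.2%). In spt3, 1 fell in nascent and 3 in total RNA (12.7% and 26.9%). In spt8 none was called in limma (11.6% and 16.8% of all genes), where 1 member in each fraction had an unadjusted p under 0.05. In ubp8 gcn5, 1 rose and 1 fell in each fraction (38.3% and 44.6%), and in spt3 gcn5, 3 fell in nascent and 5 in total RNA (45.9% and 58.7%). A count of members near these shares is no result about the members.

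Calls of members numbered 24 with batch as a term over the 7 nascent comparisons, against 14 without the term, and 35 over the 8 total comparisons, against 24. The shares of all genes called in nascent RNA were then 46.2% in spt20, 11.7% in ubp8, 35% in gcn5, 36.5% in spt3, 42.3% in spt8, 55.3% in ubp8 gcn5 and 37.2% in spt3 gcn5. In total RNA they were 60.8% in spt20, 65.8% in spt7, 35.5% in ubp8, 55.2% in gcn5, 47.1% in spt3, 40.3% in spt8, 61.9% in ubp8 gcn5 and 58.2% in spt3 gcn5. The S. pombe genes, which the deletions cannot alter, show how much the arrays themselves differ. Of S. pombe genes, 60.2% were called with the batch term in spt3 and 58.9% in spt8 nascent RNA, against 34.6% in gcn5 and 0% in spt20. Without the term 53.5% and 59.1% were called in nascent and total RNA of spt3 gcn5, and at most 13.5% in the other mutants against WT.

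Scaled to the S. pombe spike-in instead of the array median, the median gene itself shifted, and changes here are relative to it. In nascent RNA the shift was -1.08 in spt20, -0.29 in ubp8, -0.43 in gcn5, -1.08 in spt3, 0.15 in spt8, -1.71 in ubp8 gcn5 and -2.65 in spt3 gcn5. In total RNA it was -0.60 in spt20, -0.51 in spt7, 0.34 in ubp8, 0.24 in gcn5, -0.05 in spt3, 0.60 in spt8, -0.31 in ubp8 gcn5 and -1.60 in spt3 gcn5.

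**Figure D1:**
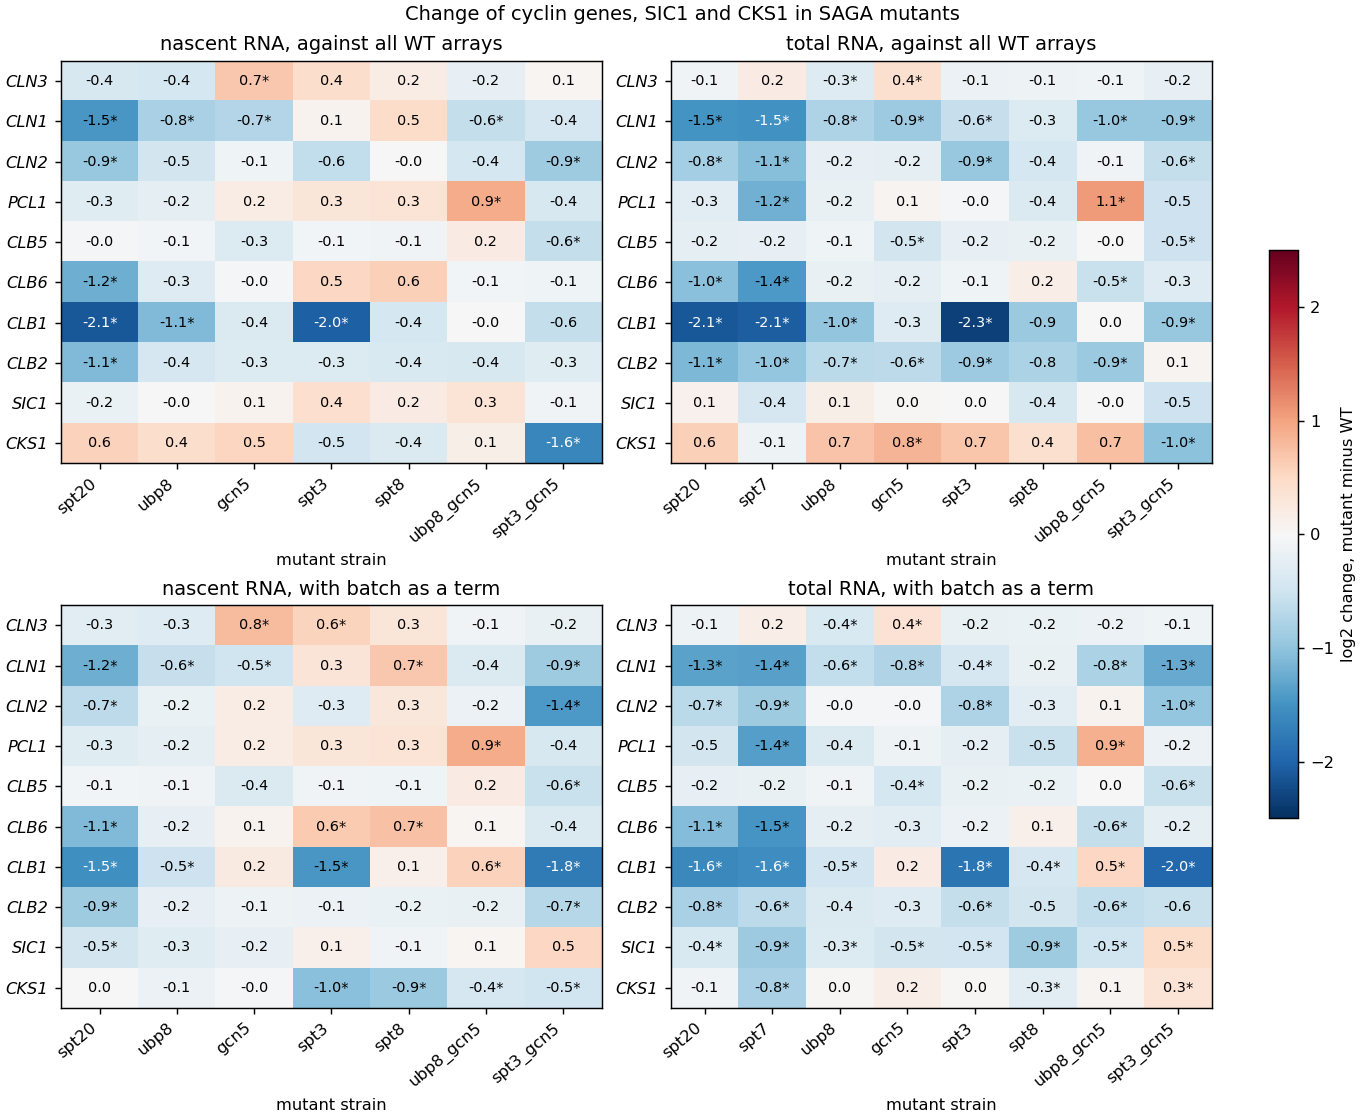
Log2 change of the 10 genes (rows) in each mutant strain (columns), mutant minus WT, in nascent (left) and total RNA (right), against all WT arrays (top) and with batch as a term (bottom). Blue is lower and red is higher in the mutant, and a star marks an adjusted p under 0.05. CLB1 is blue with a star in spt20, spt7 and spt3 wherever they were measured. PCL1 is red with a star in ubp8 gcn5, although in nascent RNA it lay below WT when scaled to the spike-in.

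Of the G1 cyclins, CLN1 was lower in the most strains, with 11 of the 15 mutant comparisons called and all 11 in the direction of less RNA. In spt20 nascent RNA the 4 arrays were at -0.98, -1.70, -1.42 and -1.79, against -0.66 to 0.47 with a median of 0.06 in the 6 WT arrays. All spt20 arrays lay below all WT arrays. The change was -1.46 ± 0.21 (adjusted p = 5.54e-06), or 2.75-fold lower. In total RNA the spt20 arrays were at -1.67 and -1.77 and the spt7 arrays at -1.53, -2.03, -1.84 and -1.60, against WT arrays at -0.72 to 0.13 with a median of -0.08. Both strains lay below all WT arrays, with changes of -1.49 ± 0.19 (adjusted p = 9.82e-07) in spt20 and -1.52 ± 0.15 (adjusted p = 1.19e-08) in spt7.

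Loss of either enzyme went with less CLN1 RNA too. In gcn5 total RNA the 4 arrays were at -1.09, -1.20, -1.35 and -0.94, below all WT arrays, and CLN1 fell by 0.92 on the log2 scale (SE 0.15, adjusted p = 4.49e-05). In ubp8 total RNA they were at -1.16, -0.88, -1.16 and -0.80, also below all WT arrays, with a change of -0.77 ± 0.15 (adjusted p = 0.000778). The ubp8 gcn5 total arrays, at -1.25, -1.26, -1.20 and -1.02, gave -0.96 ± 0.15 (adjusted p = 1.59e-05). The double mutant thus lay near gcn5, with a ubp8 gcn5 minus gcn5 difference in total RNA that was not called.

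The nascent changes of CLN1 in these 3 strains were smaller against the WT spread. CLN1 nascent RNA was at -1.01, -0.26, -0.87 and -0.85 in gcn5 and at -1.03, -0.56, -1.07 and -0.61 in ubp8, and both ranges overlapped that of WT. The changes were -0.74 ± 0.21 in gcn5 (adjusted p = 0.014) and -0.81 ± 0.21 in ubp8 (adjusted p = 0.0143). The call was lost in gcn5 without its replicate 1 (-0.65, adjusted p = 0.0579) and in ubp8 without its replicate 1 (-0.74, adjusted p = 0.0531) or 3 (-0.72, adjusted p = 0.0581). In ubp8 gcn5 the deposited nascent values gave -0.59 ± 0.21 (adjusted p = 0.0271). That call was lost without ubp8 gcn5 replicate 3 or 4 or WT replicate 6, 7 or 8, with changes of -0.54, -0.52, -0.52, -0.51 and -0.49. The ubp8 gcn5 nascent columns had been divided by 1 of 2 constants, depending on the probe set, that differ by 0.43 on the log2 scale, and with these undone the change of CLN1 was -0.94 (adjusted p = 0.00136). The batch term gave -0.36 with no call (adjusted p = 0.106) for the deposited values, and -0.71 (adjusted p = 0.00376) with the constants undone.

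In the strains without Spt3 or Spt8, CLN1 nascent RNA lay within the range of the WT arrays. In spt3 the nascent arrays were at 0.16 and -0.01, within the WT range, and the total arrays at -0.93 and -0.68, with a total change of -0.58 ± 0.19 (adjusted p = 0.0274). That call was lost without either spt3 array, at -0.45 without replicate 1 and -0.70 without replicate 2. In spt8 the nascent arrays were at 0.45 and 0.43 and the total arrays at -0.58 and -0.56, both within the WT range. CLN1 nascent RNA was higher in spt8 than in WT by 0.68 with batch as a term (adjusted p = 0.0214), and was not called against all WT arrays. The spt3 gcn5 arrays were at -0.48 and -0.40 in nascent and at -1.19 and -1.17 in total RNA. Total RNA fell by 0.95 on the log2 scale (adjusted p = 0.000202). The nascent change was not called against all WT arrays but was with batch as a term, at -0.88 (adjusted p = 0.0114).

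CLN2, the close relative of CLN1, fell in fewer strains, with 6 of 15 comparisons called. In spt20 nascent RNA the arrays were at -0.88, -0.91, -1.14 and -1.20, against WT arrays at -0.91 to 0.47 with a median of -0.05, and WT replicate 4 was the one WT array within the spt20 range. The change was -0.94 ± 0.20 (adjusted p = 0.000574). In total RNA, spt20 was at -1.38 and -1.04, spt7 at -1.41, -1.46, -1.62 and -1.20, and spt3 at -1.20 and -1.41, against WT arrays at -1.46 to 0.02 with a median of -0.09. WT replicate 4 was as low as these mutants, and the other 5 lay at -0.54 or above. The changes were -1.06 ± 0.20 in spt7 (adjusted p = 9.38e-05), -0.94 ± 0.25 in spt3 (adjusted p = 0.00662) and -0.85 ± 0.25 in spt20 (adjusted p = 0.00776). The spt3 call was lost without spt3 replicate 2 (-0.84, adjusted p = 0.101), and that of spt20 without its replicate 2 (-0.68, adjusted p = 0.135).

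In spt3 gcn5, CLN2 was at -1.07 and -0.88 in nascent and at -1.14 and -0.78 in total RNA. The nascent change was -0.88 ± 0.25 (adjusted p = 0.00699), lost without spt3 gcn5 replicate 1 (-0.79, adjusted p = 0.0888), and the total change was -0.60 ± 0.25 (adjusted p = 0.0431). The total call did not last without any 1 of both spt3 gcn5 arrays and WT replicates 5 to 8, where the change was between -0.78 and -0.42. Both were larger with batch as a term, at -1.44 (adjusted p = 1.87e-05) and -0.96 (adjusted p = 0.00317). In contrast to CLN1, CLN2 was not called after the filter in gcn5, ubp8 or ubp8 gcn5 in either fraction, with changes between -0.45 and -0.09. In the fit to all genes, however, CLN2 was called lower in ubp8 gcn5 nascent RNA for the deposited values, with and without batch as a term. There 44.5% of all genes were called without the term and 58.7% with it. Whether CLN1 and CLN2 responded differently was not tested.

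**Figure D2:**
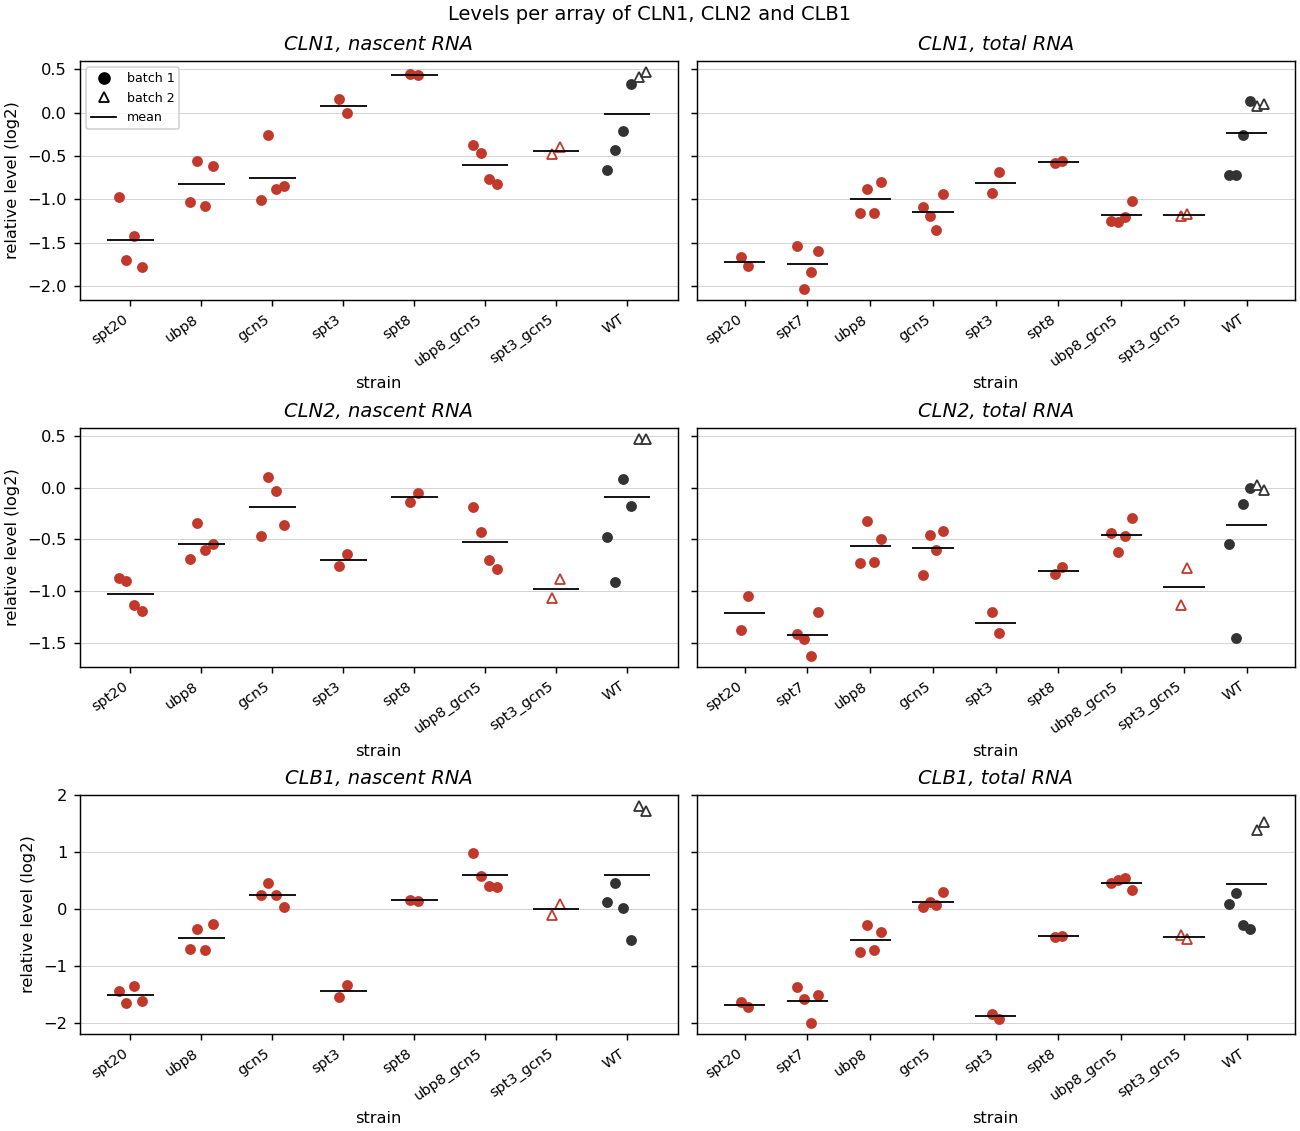
Relative level (log2 signal minus array median) of CLN1, CLN2 and CLB1 in each array by strain, nascent RNA on the left and total RNA on the right, with mutants in red and WT at the right in black. Filled circles are batch 1, open triangles are batch 2, and bars are strain means. CLN1 and CLB1 in the total arrays of spt20 and spt7 lie below all WT arrays, and for CLB1 WT batch 2 lies above WT batch 1.

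CLN3, the earliest G1 cyclin, was higher in gcn5. The nascent arrays of gcn5 were at 0.49, 1.16, 0.65 and 0.48, above all WT arrays, which lay at -0.39 to 0.38 with a median of 0.11. The change was 0.67 ± 0.17 (adjusted p = 0.00772), or 1.59-fold. In total RNA gcn5 was at -0.01, 0.48, 0.28 and 0.34, against WT arrays at -0.24 to 0.22 with a median of -0.21, and the change was 0.40 ± 0.11 (adjusted p = 0.00531). In ubp8 total RNA the arrays were at -0.63, -0.14, -0.71 and -0.36, and CLN3 fell by 0.33 on the log2 scale (adjusted p = 0.03), but the change was 0.031 when scaled to the spike-in. The ubp8 call was lost without ubp8 replicate 1 (-0.27) or 3 (-0.25) or WT replicate 3 (-0.26). In the other strains CLN3 differed from WT by between -0.44 and 0.43 with no call, although with batch as a term it was higher in spt3 nascent RNA (0.55, adjusted p = 0.0454), where scaling to the spike-in without that term gave -0.66. Fitted over all genes, CLN3 was called lower in nascent RNA of spt20 and ubp8 gcn5, where 45.5% and 44.5% of all genes were called. With batch as a term in that fit it was called in neither, nor in spt3.

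PCL1, a G1 cyclin of the kinase Pho85, was higher in ubp8 gcn5 and lower in spt7. The ubp8 gcn5 nascent arrays were at 0.22, 0.01, 0.06 and -0.13, all above the WT arrays at -1.26 to -0.22 with a median of -0.98. The change was 0.93 ± 0.17 (adjusted p = 0.000167), or 1.90-fold, and 1.02 with the constants undone, but -0.87 when scaled to the spike-in, where the median gene of that strain lay at -1.71. In total RNA the ubp8 gcn5 arrays were at 0.06, -0.07, -0.08 and 0.12, above the WT arrays at -1.55 to -0.13 with a median of -1.26. The total change was 1.07 ± 0.22 (adjusted p = 0.000403), or 2.10-fold. WT replicate 6 lay at -0.22 in nascent and -0.13 in total RNA, near ubp8 gcn5, and the other 5 WT arrays were at -0.79 or below in both fractions.

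The single mutants of the same enzymes did not show this. PCL1 was at -0.84, -0.31, -0.81 and -0.87 in gcn5 and at -1.45, -0.73, -1.37 and -0.94 in ubp8 nascent RNA, with changes against WT of 0.18 and -0.23 that were not called. In spt7 total RNA, PCL1 was at -1.84, -2.60, -2.89 and -1.72, below all WT arrays, a change of -1.20 ± 0.22 (adjusted p = 0.0001), or 2.30-fold lower. In spt20, which like spt7 lacks a core subunit, the total arrays were at -1.31 and -1.39 and the change of -0.29 was not called.

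**Figure D3:**
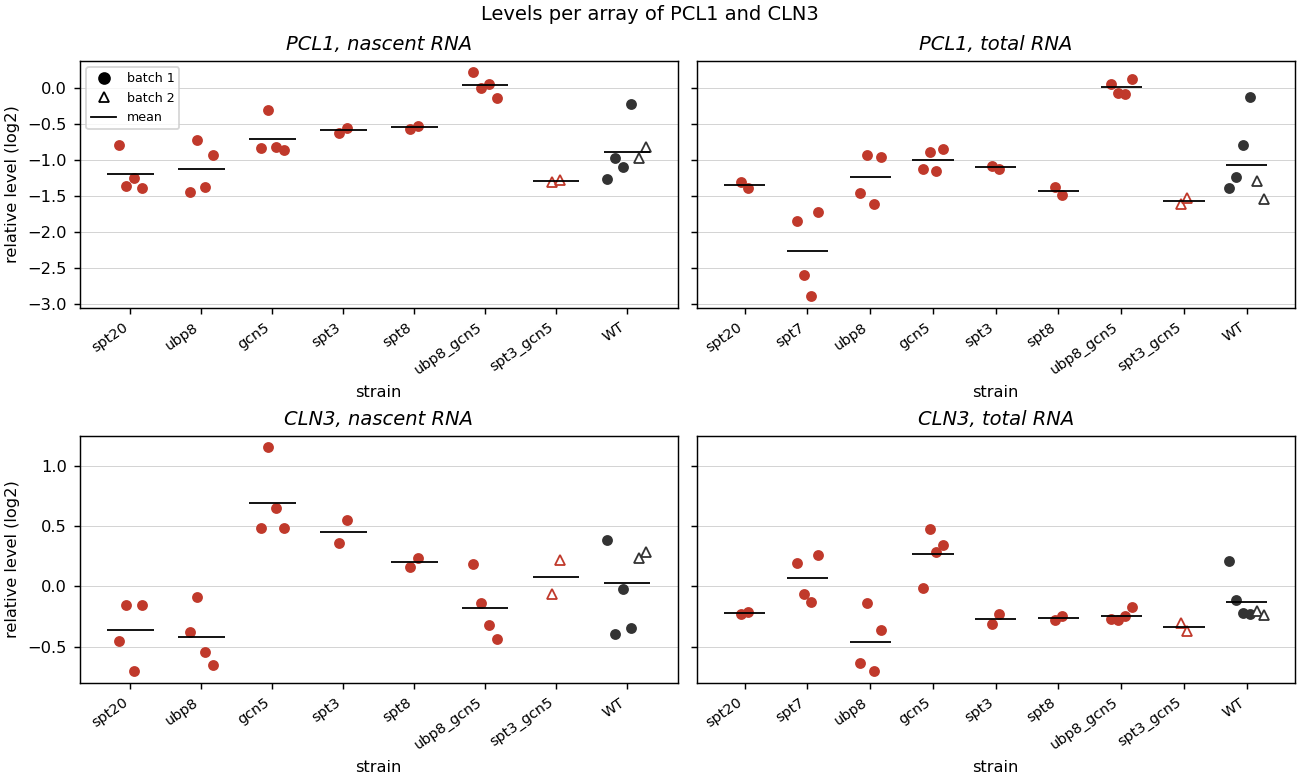
Relative level (log2 signal minus array median) of PCL1 and CLN3 in each array by strain, nascent RNA on the left and total RNA on the right, with mutants in red and WT at the right in black. Filled circles are batch 1, open triangles batch 2, and bars strain means. The ubp8 gcn5 arrays are above all others for PCL1 in total RNA, and the gcn5 nascent arrays are above all WT arrays for CLN3. Scaled to the spike-in, PCL1 nascent RNA in ubp8 gcn5 lay below WT.

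Of the S-phase cyclin genes, CLB5 fell in gcn5 total RNA and in both fractions of spt3 gcn5, and CLB6 in spt20, spt7 and the total RNA of ubp8 gcn5. CLB5 was at -1.06 and -0.99 in nascent and at -1.21 and -1.28 in total RNA of spt3 gcn5, against WT arrays at -0.57 to -0.20 with a median of -0.47 in nascent and at -1.07 to -0.44 with a median of -0.73 in total RNA. Both spt3 gcn5 arrays lay below all WT arrays in each fraction. CLB5 fell by 0.59 on the log2 scale in nascent RNA (SE 0.17, adjusted p = 0.00768) and by 0.51 in total RNA (SE 0.13, adjusted p = 0.00218). The nascent call was lost without spt3 gcn5 replicate 1 (-0.56, adjusted p = 0.0796). In gcn5, CLB5 was at -0.72, -0.77, -0.69 and -0.92 in nascent and at -1.36, -1.25, -1.33 and -0.86 in total RNA. The total change was -0.46 ± 0.11 (adjusted p = 0.00117), and the nascent change of -0.35 missed the threshold (adjusted p = 0.0732). In spt20 and spt7 the CLB5 changes lay between -0.23 and -0.04 and were not called. In the fit to all genes, however, CLB5 was called lower in spt7 total RNA (-0.28, adjusted p = 0.0272) and in gcn5 nascent RNA (-0.37, adjusted p = 0.0481). In spt20 nascent RNA the CLB5 arrays were split, at -0.10 and -0.04 in replicates 1 and 3 and at -0.80 and -0.95 in replicates 2 and 4.

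In spt20 nascent RNA the CLB6 arrays were at -2.02, -2.72, -2.40 and -2.24, all below the WT arrays, which lay at -1.52 to -0.77 with a median of -1.08. The change was -1.23 ± 0.17 (adjusted p = 3.45e-06), or 2.34-fold lower. In total RNA, fitted over all genes, CLB6 fell by 1.05 on the log2 scale in spt20 (adjusted p = 0.000142), by 1.43 in spt7 (adjusted p = 4.95e-08) and by 0.55 in ubp8 gcn5 (adjusted p = 0.00546). In that fit 45.5% of all genes were called in spt20 nascent RNA, and in total RNA 44.1% in spt20, 48.5% in spt7 and 46.9% in ubp8 gcn5. The spt3 and spt8 nascent arrays lay above all WT arrays for CLB6, at -0.55 and -0.64 in spt3 and at -0.49 and -0.55 in spt8. These changes, 0.52 and 0.60, were called only with batch as a term, at 0.65 (adjusted p = 0.0157) and 0.73 (adjusted p = 0.00695), and scaling to the spike-in turned that of spt3 to -0.57.

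Among the mitotic cyclin genes, CLB1 had the largest falls of the 10 genes. In spt20 nascent RNA its arrays were at -1.45, -1.65, -1.35 and -1.62, and in spt3 nascent RNA at -1.55 and -1.34. The WT arrays of batch 1 were at 0.12, 0.46, 0.02 and -0.54, and those of batch 2 at 1.81 and 1.72. All of the spt20 and spt3 arrays lay below all WT arrays of both batches. Against all WT arrays the change was -2.12 ± 0.31 in spt20 (adjusted p = 6.99e-06) and -2.05 ± 0.39 in spt3 (adjusted p = 0.00105). The batch term gave -1.53 ± 0.16 (adjusted p = 1.34e-08), or 2.89-fold lower, and -1.46 ± 0.19 (adjusted p = 4.66e-06), or 2.75-fold lower.

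In total RNA the CLB1 arrays were at -1.65 and -1.72 in spt20, at -1.37, -1.59, -2.0 and -1.52 in spt7 and at -1.85 and -1.93 in spt3. WT batch 1 was at 0.08, 0.28, -0.27 and -0.36 and WT batch 2 at 1.4 and 1.54, so the mutants again lay below all WT arrays. With batch as a term the changes were -1.62 ± 0.15 in spt20, -1.55 ± 0.12 in spt7 and -1.82 ± 0.15 in spt3 (adjusted p = 1.08e-09, 3.29e-11 and 4e-10), and against all WT arrays they were -2.13, -2.06 and -2.33. CLB1 in spt3 total RNA was the largest change of any member against all WT arrays, 5.04-fold lower.

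Spt8 is thought to work with Spt3, and its loss gave a smaller change of CLB1. The spt8 arrays were at 0.16 and 0.14 in nascent RNA, within WT batch 1, and at -0.49 and -0.47 in total RNA, below all WT arrays. The total change was -0.93 ± 0.33 against all WT arrays (adjusted p = 0.0558) and -0.41 ± 0.15 with batch as a term (adjusted p = 0.0328). The nascent change was -0.45 and 0.14 in these fits, with no call. The difference between spt3 and spt8 was not tested.

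In ubp8, CLB1 was at -0.71, -0.36, -0.71 and -0.27 in nascent and at -0.76, -0.28, -0.71 and -0.41 in total RNA. It fell by 1.11 on the log2 scale in nascent RNA (adjusted p = 0.0206) and by 0.99 in total RNA (adjusted p = 0.00848) against all WT arrays, and by 0.53 (adjusted p = 0.0292) and 0.47 (adjusted p = 0.00484) with batch as a term. The nascent call against all WT arrays was lost without ubp8 replicate 1 (-1.05, adjusted p = 0.0632) or 3 (-1.04, adjusted p = 0.0659). In gcn5, at 0.04 to 0.45 in nascent and 0.03 to 0.30 in total RNA, CLB1 was not called in either fit. In ubp8 gcn5 it was at 0.99, 0.59, 0.41 and 0.39 in nascent and at 0.45, 0.51, 0.54 and 0.33 in total RNA. Against all WT arrays the changes were -0.0045 and 0.013, and with batch as a term it was higher than WT, by 0.58 in nascent (adjusted p = 0.0031) and 0.52 in total RNA (adjusted p = 0.000755), whereas scaling to the spike-in without that term gave -1.80 and -0.26.

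The spt3 gcn5 strain shows how much the choice of WT arrays matters for CLB1. Its arrays were at -0.10 and 0.09 in nascent and at -0.47 and -0.53 in total RNA, in the middle of batch 1 or just below it, but far below WT replicates 7 and 8 of its own batch. Against all WT arrays the nascent change of -0.61 was not called (adjusted p = 0.203) and the total change was -0.94 (adjusted p = 0.0173), a call lost without either spt3 gcn5 array (-0.98 without replicate 1, -0.91 without replicate 2). With batch as a term the changes were -1.77 ± 0.22 (adjusted p = 7.78e-07) and -1.97 ± 0.18 (adjusted p = 4.03e-10), close to those of spt3.

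CLB2, whose product carries most mitotic Clb activity, gave a low signal and smaller changes. Its deposited intensity was 13.8 to 95.8 over all arrays used. Fitted over all genes, CLB2 fell in spt20, by 1.10 on the log2 scale in nascent (adjusted p = 0.000137) and 1.12 in total RNA (adjusted p = 0.0017). In total RNA it also fell in spt7 (-0.97), ubp8 gcn5 (-0.94), spt3 (-0.92), ubp8 (-0.68) and gcn5 (-0.65), while 26.7% of all genes were called in spt3, 25.1% in ubp8 and 36.5% in gcn5. The calls in ubp8 (-0.36, adjusted p = 0.103) and gcn5 (-0.33, adjusted p = 0.109) were lost with batch as a term. Those in spt7 (-0.65, adjusted p = 0.00203), ubp8 gcn5 (-0.62, adjusted p = 0.00325) and spt3 (-0.60, adjusted p = 0.0236) were kept with smaller changes. CLB2 nascent RNA of spt3 gcn5 was called with the term (-0.72, adjusted p = 0.0432) but not against all WT arrays. WT batch 1 spread over -2.38 to -1.24 in total RNA, and of all mutants only spt20 had all its total arrays below the lowest WT array. CLB1 neighbours CLB6 and CLB2 neighbours CLB5 in the annotation, and in spt3 total RNA, where CLB1 fell most, CLB6 differed from WT by -0.11 with no call.

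The inhibitor gene SIC1 was called in no mutant against all WT arrays, with changes between -0.52 and 0.42. WT batch 2 lay at -1.4 and -1.33 in nascent and at -1.90 and -1.87 in total RNA, and WT batch 1 at -0.77 to 0.03 and at -0.49 to -0.22. SIC1 was, with batch as a term, lower in total RNA of all 7 strains of batch 1, most in spt7 (-0.92 ± 0.09, adjusted p = 1.44e-09) and spt8 (-0.89 ± 0.11, adjusted p = 1.23e-06), and by -0.50 to -0.34 in the other 5. Total arrays of spt7 lay at -1.59 to -1.20 and those of spt8 at -1.32 to -1.30. The 7 SIC1 calls share the same WT batch 1 arrays, so they are not 7 separate results. In that fit 9.74% (spt20) to 44.7% (spt7) of S. pombe genes were called in total RNA of these strains. Scaled to the spike-in without the term, their median gene shifted by between -0.60 (spt20) and 0.60 (spt8). The part of the arrays in the SIC1 values was not tested. With the term, SIC1 in spt3 gcn5 total RNA was higher than in WT batch 2 by 0.46 (adjusted p = 0.00281). Scaling to the spike-in without that term gave -2.11. In nascent RNA the one call with batch as a term was in spt20, at -0.47 (adjusted p = 0.0125).

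CKS1, which encodes the small Cdc28-binding subunit, had calls against all WT arrays that turned on the batch. The spt3 gcn5 arrays were at -1.26 and -1.61 in nascent and at -0.97 and -0.93 in total RNA. WT batch 2 was at -1.03 and -0.85 in nascent and at -1.14 and -1.42 in total RNA, whereas WT batch 1 was at 0.70, 1.08, 0.71 and 0.63 and at 0.56, 0.97, 0.61 and 0.88. Against all WT arrays CKS1 in spt3 gcn5 changed by -1.64 in nascent (adjusted p = 0.00101) and by -1.03 in total RNA (adjusted p = 0.0324). With batch as a term the changes were -0.49 (adjusted p = 0.0419) and 0.33 (adjusted p = 0.0212), so the total value turned its sign, while scaling to the spike-in without that term gave -4.24 and -2.62. In gcn5 total RNA, at 0.77, 1.05, 0.93 and 0.91, the change of 0.84 against all WT arrays (adjusted p = 0.0416) became 0.16 with no call. The gcn5 call was also lost without any 1 of the 4 gcn5 arrays (0.80 to 0.89) or without WT replicate 7 (0.60) or 8 (0.54). The spt3 gcn5 total call was lost without either of its arrays (-1.01 and -1.04) or any of WT replicates 3 to 6 (-0.93 to -0.85).

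Set against WT batch 1, CKS1 nascent RNA was lower in spt3 and spt8. The spt3 nascent arrays were at -0.13 and -0.40 and the spt8 nascent arrays at -0.04 and -0.26, below all WT batch 1 arrays and above both of batch 2. With batch as a term the changes were -1.05 ± 0.16 in spt3 (adjusted p = 3.42e-05) and -0.93 ± 0.16 in spt8 (adjusted p = 0.000211), and against all WT arrays they were -0.47 and -0.36 with no call. Total RNA of the same strains was at 0.74 and 0.81 in spt3, a change of 0.02, and at 0.41 and 0.55 in spt8, a change of -0.28 (adjusted p = 0.0391). Beside this, 60.2% of S. pombe genes in spt3 and 58.9% in spt8 nascent RNA were called in the same fit, and the part of the arrays in the CKS1 values was not tested. In spt7 total RNA, CKS1 was at -0.01, -0.07, -0.21 and 0.09, also between the WT batches, with a change of -0.81 ± 0.09 with batch as a term (adjusted p = 7.6e-09) and of -0.13 without it. There 44.7% of S. pombe genes were called with the term. In spt20 and ubp8 the CKS1 arrays, at 0.40 to 0.95 in nascent and 0.64 to 0.85 in total RNA, lay near WT batch 1, and neither was called in either fit. In ubp8 gcn5 nascent RNA CKS1 was lower with batch as a term (-0.43, adjusted p = 0.00793), and by -0.34 (adjusted p = 0.042) with the constants undone. Against all WT arrays it was not called there.

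**Figure D4:**
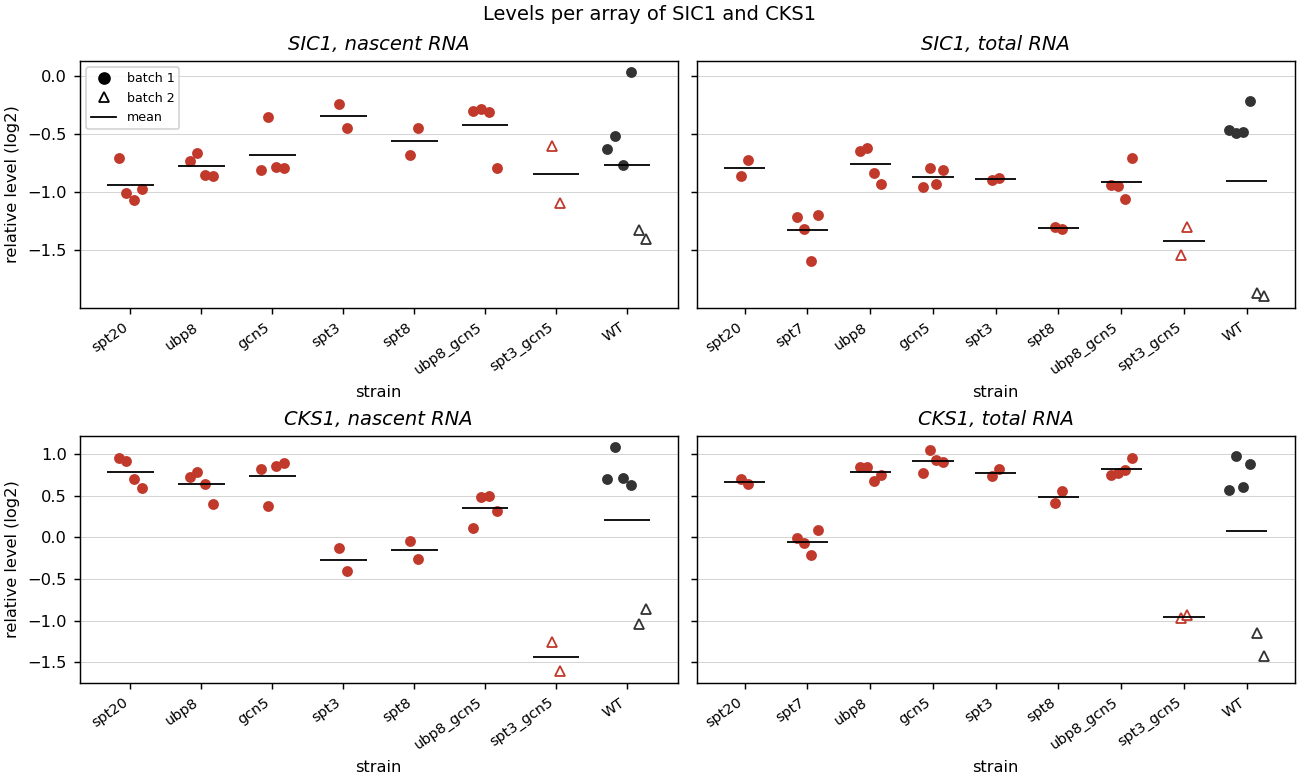
Relative level (log2 signal minus array median) of SIC1 and CKS1 in each array by strain, nascent RNA on the left and total RNA on the right, with mutants in red and WT at the right in black. Filled circles are batch 1, open triangles batch 2, and bars strain means. The WT triangles lie below the WT circles by a mean difference of -2.04 for CKS1 in total RNA, and the spt3 gcn5 triangles lie near the WT triangles.

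The double mutants were set against their single mutants to see what a further loss added. For ubp8 gcn5 minus gcn5, PCL1 rose by 0.74 ± 0.19 in nascent (adjusted p = 0.00812) and 1.01 ± 0.25 in total RNA (adjusted p = 0.00737), and for ubp8 gcn5 minus ubp8 by 1.16 ± 0.19 (adjusted p = 7.97e-05) and 1.25 ± 0.25 (adjusted p = 0.00051). Scaled to the spike-in, the nascent differences of PCL1 turned to -0.59 against gcn5 and -0.34 against ubp8. CLN3 fell relative to gcn5, by 0.87 on the log2 scale in nascent (adjusted p = 0.00282) and 0.51 in total RNA (adjusted p = 0.00541), so the higher CLN3 of gcn5 was not seen in ubp8 gcn5. CLB5 rose relative to gcn5 by 0.56 in nascent (adjusted p = 0.0113) and 0.46 in total RNA (adjusted p = 0.00888). With the constants undone the nascent difference of CLB5 was 0.21 with no call, and scaled to the spike-in it was -0.78 in nascent and -0.059 in total RNA. CLB1 rose relative to ubp8 by 1.11 in nascent (adjusted p = 0.0162) and 1.00 in total RNA (adjusted p = 0.013), so that the fall of CLB1 in ubp8 was not seen in the double mutant. The nascent call was lost without ubp8 gcn5 replicate 1 (0.97, adjusted p = 0.0615), and the nascent difference was -0.40 when scaled to the spike-in. In these comparisons 3 of 9 members were called against gcn5 in nascent and 3 of 8 in total RNA, and 2 of 9 and 2 of 8 against ubp8. Over all genes 17.5% and 11.8% were called against gcn5 and 28.9% and 21.9% against ubp8.

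For spt3 gcn5 every comparison with a single mutant crosses the batches, so that without the batch term strain and batch cannot be told apart. Without it 4 of 9 members in nascent and 2 of 8 in total RNA were called against gcn5 (52.1% and 64.6% of all genes), and 3 of 9 and 2 of 8 against spt3 (39.4% and 58.8%). With it 4 of 9 and 4 of 8 were called against gcn5 (32% and 50.8%), and 3 of 9 and 2 of 8 against spt3 (33.9% and 47.1%). CKS1 differed by -2.17 in nascent and -1.87 in total RNA against gcn5 and by -1.17 and -1.73 against spt3 without the term, and with it by -0.45, 0.17, 0.56 and 0.31, none of them called. CLB1 differed from gcn5 by -0.25 and -0.63 without the term and by -2.0 (adjusted p = 4.71e-06) and -2.16 (adjusted p = 5.34e-09) with it. Against spt3, CLB1 differed by 1.44 in nascent (adjusted p = 0.02) and 1.39 in total RNA (adjusted p = 0.00543) without the term, but by -0.31 and -0.15 with it and by -0.071 and -0.12 when scaled to the spike-in. The nascent calls of CLB1 and CKS1 against spt3 were lost without any 1 of the 4 arrays compared, with CLB1 at 1.33 to 1.55 and CKS1 at -1.34 to -0.99, and CKS1 also without ubp8 replicate 1 or 3 (-1.17 in both). CLN2 was lower in spt3 gcn5 than in gcn5 in nascent RNA in both fits, by -0.79 (adjusted p = 0.0181) and -1.63 (adjusted p = 7.96e-05). CLN3 was lower there by -0.62 (adjusted p = 0.0308) and -0.97 (adjusted p = 0.0152), and in total RNA by -0.61 (adjusted p = 0.001) and -0.48 (adjusted p = 0.0427). Without the term the nascent differences from gcn5 were not called without spt3 gcn5 replicate 1 (CLN2 -0.69, CLN3 -0.47) or 2 (CLN2 -0.88, CLN3 -0.76), nor for CLN3 without gcn5 replicate 2 (-0.46). PCL1 was lower in spt3 gcn5 nascent RNA by -0.59 than in gcn5 (adjusted p = 0.0367) and by -0.71 than in spt3 (adjusted p = 0.0387). Neither was called with the term, and both were lost without either spt3 gcn5 array, the first also without gcn5 replicate 2 (-0.45) and the second without either spt3 array (-0.74 and -0.67).

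In WT, nascent and total RNA gave nearly the same relative levels for these genes. The mean nascent minus total difference over the 6 WT pairs ranged from 0.09 ± 0.17 for CLB2 to 0.31 ± 0.29 for CLB5 (SD, n = 6), and CLN1 and CLB5 were higher in nascent RNA in 6 of 6 pairs. No member and 0% of all genes were called in limma, in a fit that did not pair the arrays. There 1 of 8 members and 389 of 4086 genes had an unadjusted p under 0.05. With the replicate number as a block, which pairs same-numbered arrays, again no member and 0% of all genes were called. In that fit 3 of 8 members had an unadjusted p under 0.05, a count not made for all genes.

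The change in nascent RNA was compared with the change in total RNA in each strain, to see where the 2 fractions part. No member was called in any of 7 strains, where 0% of all genes were called in spt20, ubp8 and gcn5, 0.759% in spt3, 7.49% in spt8, 4.48% in ubp8 gcn5 and 0.489% in spt3 gcn5. Members with an unadjusted p under 0.05 numbered 3 of 8 in spt3 and 1 of 8 in spt8, against 525 and 1047 of 4086 genes. CKS1 was called with batch as a term in spt3 (-1.07, adjusted p = 0.000625), spt8 (-0.66, adjusted p = 0.00546) and ubp8 gcn5 (-0.49, adjusted p = 0.0226), its nascent change being the lower one. In that fit 29.1% of all genes were called in spt3, 46.1% in spt8 and 19.5% in ubp8 gcn5, and 48.5% and 49.9% of S. pombe genes in spt3 and spt8. CLN1 in spt8 differed the other way, by 0.86 (adjusted p = 0.0162), with a nascent change of 0.68 and a total change of -0.18. The other members called there were CLN3 (0.73) and SIC1 (0.60) in spt3, PCL1 (0.89) and SIC1 (0.80) in spt8, and SIC1 (0.55) in ubp8 gcn5. In ubp8 gcn5 neither call lasted with the constants undone, where CKS1 was at -0.41 (adjusted p = 0.588) and SIC1 at 0.20 (adjusted p = 0.766), and 0% of all genes were called. With the replicate number as a block and no batch term, CKS1 and CLN1 were called in spt3, CKS1, CLB1, CLN1, PCL1 and SIC1 in spt8 and CKS1 in ubp8 gcn5, although same-numbered nascent and total arrays of these mutants did not deviate together as those of WT did. With that block 9.91% of all genes were called in spt3, 31% in spt8 and 19.2% in ubp8 gcn5.

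**Figure D5:**
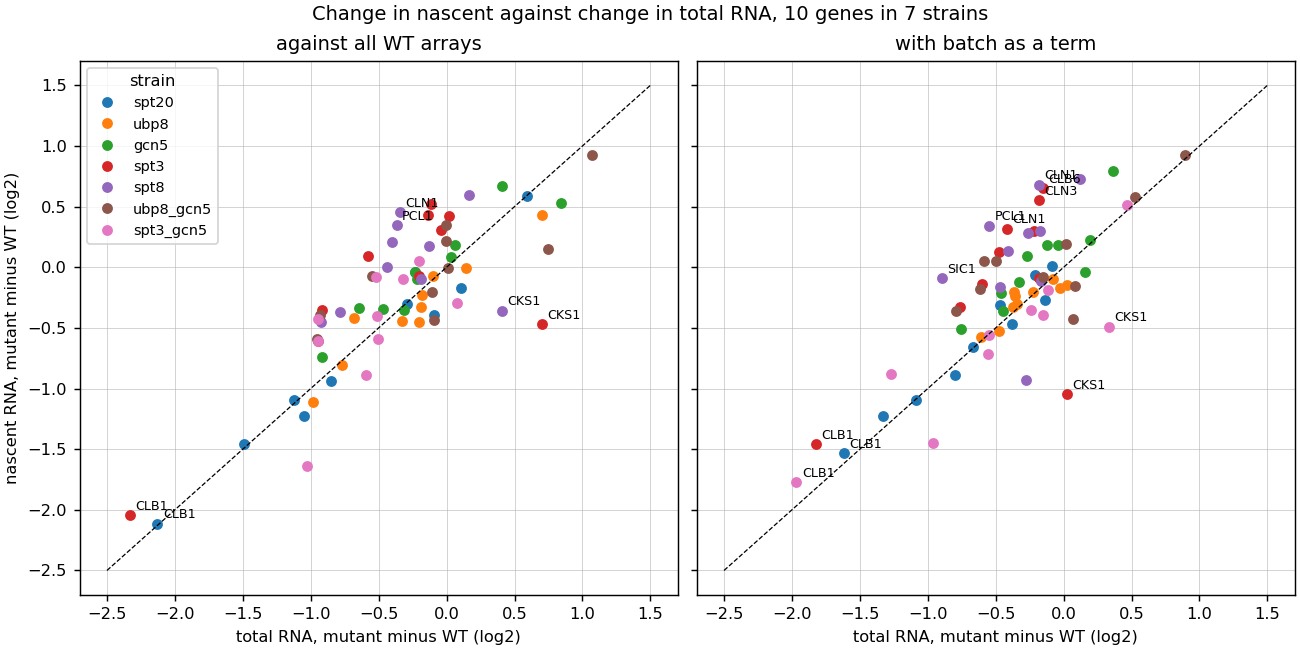
Change in nascent RNA (vertical) against change in total RNA (horizontal), mutant minus WT in log2 units, for the 10 genes in 7 strains, against all WT arrays (left) and with batch as a term (right). The dashed line marks equal change. The CLB1 points of spt20 and spt3 lie near the line at the lower left, and CKS1 in spt3 lies below it.

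Other genes of the cycle were counted in lists for comparison. G1/S targets of SBF and MBF outside the members were mixed. In spt7 total RNA 7 of 13 fell and none rose, and in spt20 5 of 13 fell in total and 6 of 15 in nascent RNA, where 1 rose. These shares lay near those of all genes called in the same comparisons (47.2%, 44.3% and 45.6%). SVS1, a cell wall gene, fell by 2.16 in spt7 and 1.4 in spt20 total RNA, and RNR1, the large subunit of ribonucleotide reductase, fell by 1.86 in spt20. In spt3 nascent RNA 3 of 15 rose and 1 fell, which became 10 and 1 with batch as a term, against 12.7% and 36.5% of all genes called. With the term 60.2% of S. pombe genes were called in that comparison too. Scaled to the spike-in without the term, its median gene lay at -1.08 and 0 genes were called higher. The part of the arrays in this count was not tested. Among G2/M genes, 7 of 13 fell in ubp8 total RNA and 8 of 13 in ubp8 gcn5 (26.5% and 44.6% of all genes called), and 5 and 8 with batch as a term (35.5% and 61.9%). Against all WT arrays, 4 of 13 fell in total RNA of spt7 (47.2% of all genes called) and of spt3 gcn5 (58.7%). In spt20 (44.3%) and gcn5 (37.2%) 2 fell, and in spt3 (26.9%) and spt8 (16.8%) 1 fell. In gcn5 and in spt3 gcn5 1 rose. In ubp8 gcn5 CDC20, an activator of the anaphase-promoting complex, fell by 0.83. Of S-phase histone genes, 6 of 7 fell in spt3 gcn5 total RNA and 4 of 7 in spt20 and in spt7, against 58.7%, 44.3% and 47.2% of all genes called. With batch as a term 5 fell in spt3 gcn5, 6 in spt20 and 2 in spt7, against 58.2%, 60.8% and 65.8% of all genes called. In total RNA of the other strains none of these histone genes fell against all WT arrays. There 3 rose in spt8 (16.8%) and 2 each in spt3 (26.9%), ubp8 (26.5%) and ubp8 gcn5 (44.6%). With batch as a term 4 rose in spt8 (40.3%), and 4 rose and 1 fell in spt3 (47.1%). In ubp8 gcn5 2 rose and 1 fell (61.9%), and in gcn5 1 fell (55.2%). Of the other cyclins, kinases and partners, PCL5, a cyclin of Pho85, fell by 1.29 in spt20, 1.26 in spt7 and 0.97 in spt3 total RNA and rose by 1.70 in ubp8 gcn5. In the same list 5 of 21 fell and 3 rose in spt20 total RNA, 6 fell and 2 rose in spt7, 2 fell and 3 rose in spt3 and 5 fell and 2 rose in ubp8 gcn5. Over all genes 44.3%, 47.2%, 26.9% and 44.6% were called in these comparisons, so the list did not stand out.

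Likeness of pattern was described by Pearson's r over the 15 mutant changes against all WT arrays, among 4015 genes, where comparisons share WT arrays and the batch. The nearest genes to CLN1 were GRR1 (0.93), WHI2 (0.92) and MSB2 (0.91), and to CLN2 TPK2 (0.90), DSE4 (0.88) and BAP3 (0.88). Nearest to CLB1 were UTR2 (0.94), EXG1 (0.93) and SNF11 (0.93), and to PCL1 AGP1 (0.83), PDR16 (0.83) and PST1 (0.81). Nearest to CKS1 were TVP15 (0.95), GRX4 (0.95) and RPB11 (0.94), to CLB5 COX16 (0.88), YIL001W (0.87) and REV7 (0.86), and to CLN3 DOT6 (0.76), MDM32 (0.73) and YAP1801 (0.72). No member was among the 3 nearest genes of another. Between members the highest r was 0.78, for CLN2 and CLB1, against 0.46 for CLN1 and CLN2.

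Strains were also ordered by mean relative level in total RNA. This order takes no account of batch, and spt3 gcn5 is of batch 2. WT batch 2 differed from WT batch 1 by 1.54 for CLB1 and by -2.04 for CKS1. The place of spt3 gcn5 among the other strains therefore cannot be told apart from its batch. CLB1 ran from spt3, spt20 and spt7 at the low end through ubp8, spt3 gcn5 and spt8 to gcn5, WT and ubp8 gcn5. The arrays of spt3, spt20 and spt7 lay below those of all other strains, and the ranges of spt3 and of spt20 each overlapped that of spt7. The arrays of spt3 gcn5 and spt8 lay within the range of ubp8 and below all WT arrays, while the range of ubp8 overlapped the lower end of that of WT. The ranges of gcn5 and ubp8 gcn5 lay within that of WT. For CLN1 total RNA spt7 and spt20 came lowest with overlapping ranges, then ubp8 gcn5, spt3 gcn5, gcn5, ubp8 and spt3, each overlapping its neighbour, then spt8, apart from spt3, and WT, whose range overlapped those of spt8 and spt3. For PCL1 total RNA spt7 came lowest and ubp8 gcn5 highest, both apart from their neighbours. For CKS1 total RNA spt3 gcn5 came lowest, apart from spt7, and gcn5 highest, with gcn5, ubp8 gcn5, ubp8 and spt3 overlapping in turn, and the WT range, which spans both batches, overlapped those of all mutants.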

How the data were processed

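RNA of S. cerevisiae with S. pombe spike-in was hybridised to Affymetrix arrays, and the files hold deposited intensity values on a linear scale. The submitters' processing notes name Affymetrix Expression Console, version 1.4.1, and how it was set is not given in the sources at hand. The number of arrays limits the precision. Of 10928 probe sets, 7244 have 1 gene symbol, 1 has several and 3683 have none. For the 47 genes with several probe sets, the probe set brightest over the arrays used was kept. Log2 intensities were centred on the array median, and the lowest 25% of genes were left out. Fits used limma 3.58.1 in R 4.3.3, checked on simulated data, over all groups of a fraction, with moderated tests and Benjamini-Hochberg adjustment. Batches were taken from S. pombe profiles, whose rank correlation between nascent arrays was at most 0.79 between and at least 0.891 within batches. No label names them, and they were used as a term.

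The 10 genes and the gene lists were chosen with earlier results of these data known. Values per array were printed for members called in at least 3 of 15 comparisons with WT and for CKS1, up to 2 genes per list and comparison by lowest p, and the 3 most alike genes per member. CLB2, CLB6 and SIC1 values by array and other list genes shown beyond that rule were chosen after their values were seen. Same-numbered nascent and total WT arrays deviated together (r from 0.557 to 0.848), as did those of ubp8 (0.344 to 0.575), and other strains did not throughout. Alternatives were quantile normalization, spike-in scaling, an added 16, no filter, batch and replicate blocks, averaged replicates, only the compared groups, the constants undone and leaving out each array. Cross-hybridisation between related cyclin genes was not checked, since probe sequences were not used here. The list of M/G1 genes is not reported here.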

Additional observations from a re-analysis of the deposited data

Results flagged for a closer look

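Each of the 10 genes was looked at in 10 sets of 4 or 6 arrays of a strain and fraction, 100 in all, and 5 had an array far from the others for its group's range, and chance alone gives about 1 in 20. Of these, 3 came from nascent replicate 2 of gcn5, where CKS1 was the lowest of 4 arrays at 0.38, PCL1 the highest at -0.31 and SIC1 the highest at -0.35. CLN3 was highest in WT total replicate 3, at 0.22, and the other 5 WT arrays lay at -0.11 or below. SIC1 was lowest in ubp8 gcn5 nascent replicate 4, at -0.79. The cause was not tested.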

How the results depend on the processing

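Of 59 called changes, 38 kept their call in every fit that left out 1 array. Leaving out 1 array gave 12 to 20 calls in nascent and 21 to 32 in total RNA against WT, 15 to 23 between double and single mutants, and 0 for both comparisons of fractions. Nascent calls against WT numbered 14, and 34 with spike-in scaling, 24 with a batch block, 26 with that block and no filter, 26 with that block and the constants undone, 6 with only the compared groups fitted and 5 with consecutive replicates averaged. Total calls numbered 24, and 40 with the batch block and no filter, 10 with only the compared groups and 15 with consecutive replicates averaged. Double mutant calls numbered 21, and 51 with spike-in scaling, 37 with only the compared groups and 4 with consecutive replicates averaged. Calls of a nascent change unlike the total change numbered 0, and 12 with spike-in scaling, 9 with the batch block, 5 with that block and no filter and 7 with that block and the constants undone. With the replicate block these counts were 19, 27, 35 and 8, and the WT fractions kept 0 calls. The number of all genes called changed with the setting too, so these counts are no result about the members. With spike-in scaling 4050 of 4086 genes were called in nascent RNA of spt3 gcn5, 4006 in ubp8 gcn5 and 3454 in spt20. In the same scaling 3433 were called in spt3, 717 in gcn5, 6 in ubp8 and 3 in spt8. Spike-in scaling turned PCL1 in ubp8 gcn5 nascent RNA (-0.87), CLN3 in ubp8 total RNA (0.031), CLB5 in ubp8 gcn5 minus gcn5 (-0.78 nascent, -0.059 total), PCL1 in ubp8 gcn5 minus gcn5 (-0.59) and minus ubp8 (-0.34) in nascent RNA, CLB1 in ubp8 gcn5 minus ubp8 nascent RNA (-0.40) and CLB1 in spt3 gcn5 minus spt3 (-0.071 nascent, -0.12 total). The batch block turned CKS1 in spt3 gcn5 minus spt3 (0.56 nascent, 0.31 total), minus WT (0.33 total) and minus gcn5 (0.17 total), and CLB1 in spt3 gcn5 minus spt3 (-0.31 nascent, -0.15 total). The replicate block turned CLN2 in spt3 gcn5 total RNA (0.13). Quantile normalization kept 55 of the 59 calls, an added 16 kept 55, and no filter kept 57. Averaging alternating replicates kept 43 and averaging consecutive replicates kept 24. The averaging of alternating replicates and the blocks combined with other settings were chosen after seeing the data. Apart from the construction of each setting, the cause was not tested.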
